A study of Mus musculus with 40 samples.

Results

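The genes described here are the histones of mouse marrow and the proteins that place, remodel, mark and read them. They were taken by symbol, with the families of core and linker histones, the high mobility group (HMG) proteins, histone chaperones, SWI/SNF and CHD remodellers, histone deacetylases, methyltransferases and demethylases, chromobox and bromodomain proteins, retinoblastoma-binding proteins and DNA methyltransferases, and without H2ax. The array annotation named 89 such genes, of which 34 had values in at least 3 mice of every group and were tested among 5297 genes and unnamed probes in all. RNA of marrow cells from DBA/2 mice, an inbred strain, was measured in 4 groups of 5 mice with 2 arrays per mouse: untreated controls, and mice 1, 2 and 5 days after an intraperitoneal injection of 83 mg/kg cyclophosphamide. All 15 treated mice received this same dose, and no injected control group was given in the labels, so drug and injection cannot be told apart. Values are log ratios of a mouse's RNA over a common reference pool, taken as log2 because the base is not stated, and 1 value per mouse is the average of its 2 arrays.

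Cyclophosphamide is activated to metabolites that cross-link DNA, and rapidly dividing marrow cells are among those it damages most. DNA in the nucleus is wound around octamers of core histones, linker histones bind where DNA enters and leaves, and HMG proteins loosen or bend the fibre. Each round of DNA replication needs new histones, which chaperones deliver to the fork, whereas deacetylases, methyltransferases, demethylases and reader proteins set which genes stay accessible. In marrow these proteins serve both the division of precursors and the choice of blood lineage.

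Between 4079 and 7977 of 13443 probes had a value on an array, and the 2 arrays of a mouse correlated at 0.683 to 0.957. For the 34 tested genes the 2 arrays of a mouse differed by a median of 0.0736, while the median SD between mice of a group was 0.223. Markers of the lineages that marrow holds had values in every group, with 6 of 10 late neutrophil, 5 of 10 erythroid and 5 of 7 macrophage genes measured well enough to test. The ratios give no absolute level, so none of these markers can be called absent. In whole marrow, fewer cells of a type and less RNA per cell cannot be told apart.

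Of the 55 named genes that were not tested, 34 had no value on any array and 21 had values in too few mice. The first set includes Hmgb1 and Hmgb2, Hdac1 and Hdac2, Rbbp4 and Rbbp7, and several replication-dependent histone genes, whose mRNAs end in a stem-loop rather than a poly(A) tail. Just inside the limit stood Dnmt3l, Hdac7, Hmgn3, Kdm8 and Nap1l5, with only 3 mice measured in their thinnest group. Just outside it stood 7 genes with 2 mice in theirs, namely Brd2, Dnmt3a, H1f1, H2al1n, Kdm2b, Kdm6a and Smarcad1. H1f1, a linker histone, read 0.19, -0.29, 0.77 and 0.34 in 4 control mice, -0.18, -0.53, -0.69 and -0.50 in 4 mice on day 1, -0.60, -0.49 and -0.015 in 3 on day 2 and -0.16 and -0.054 in 2 on day 5. It is the only gene of these 7 whose values are printed. No difference was tested for it, and nothing is read from its values. Ezh2, the methyltransferase of Polycomb repressive complex 2, had values in only 6 mice, and Smarca4 and Kdm6b were not in the annotation used here. By role, 7 of 21 histones, 4 of 9 HMG proteins, 5 of 8 chaperones, 4 of 10 genes with a Smarc symbol (SWI/SNF subunits and relatives such as Smarca5, Smarcad1 and Smarcal1), 3 of 3 CHD remodellers, 1 of 8 deacetylases, 1 of 4 retinoblastoma-binding proteins, 2 of 7 methyltransferases, 4 of 6 demethylases, 1 of 6 chromobox proteins, 0 of 3 bromodomain proteins and 2 of 4 DNA methyltransferases were tested.

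**Figure D1:**
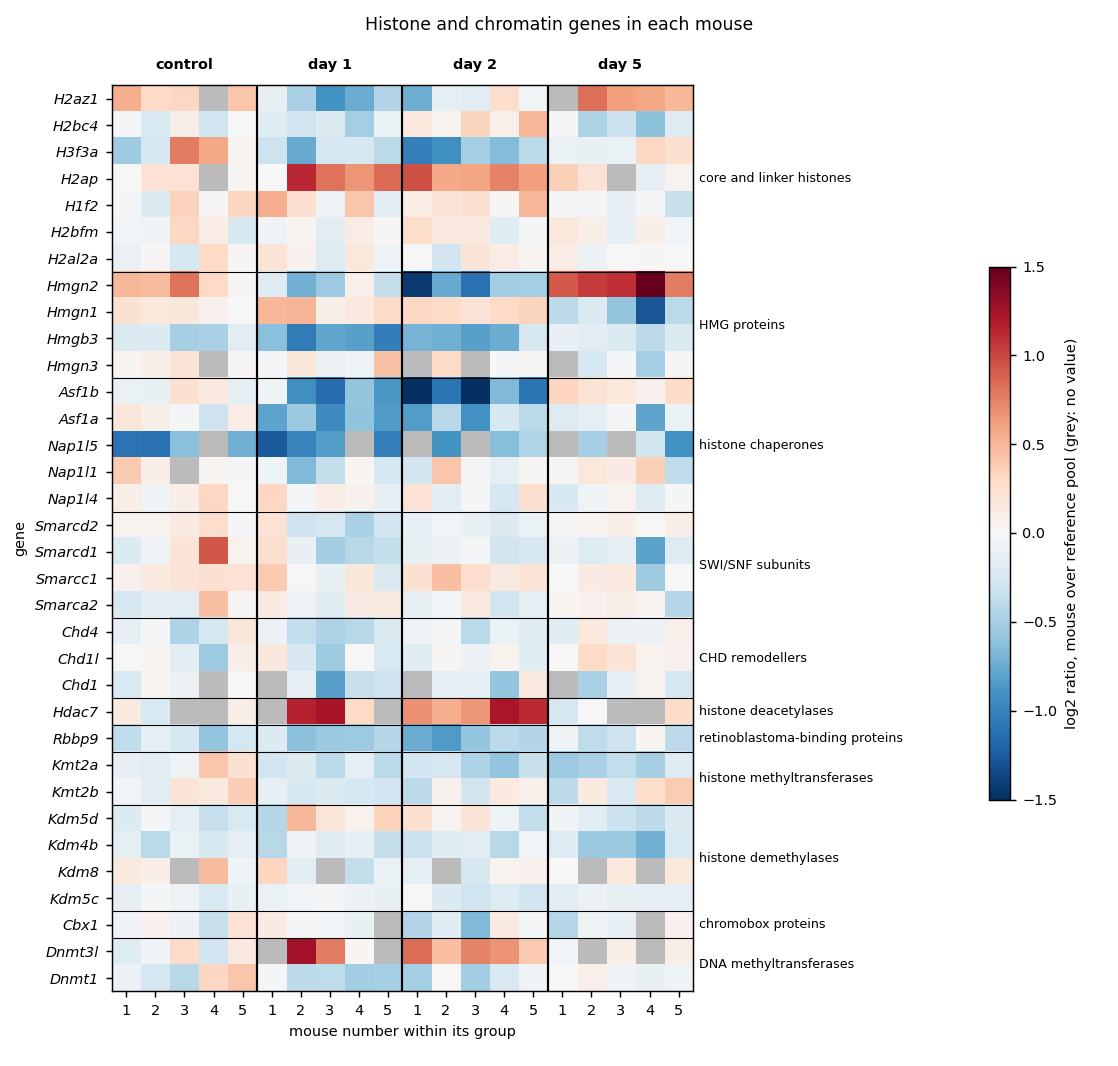
Each cell is the log2 ratio of 1 mouse over the reference pool for the 34 tested genes (rows, grouped by role) in 20 mice (columns, 5 per group in time order), and grey cells have no value. Hmgn2, Asf1b and H2az1 are low on days 1 and 2, Hdac7, H2ap and Dnmt3l are high on those days, and most rows of remodellers and demethylases show little colour in any group.

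The series sets marrow taken after the drug against marrow of untreated mice, so the first question was which of these genes differed. Over the 4 groups, 12 of the 34 genes differed in limma's moderated F test at an adjusted p under 0.05, against 30.7% of all genes and probes tested. These 12 were Hmgn2, Asf1b, H2az1, Hmgn1, Hmgb3, Asf1a, Hdac7, H2bc4, H3f3a, H2ap, Kmt2a and Dnmt3l. That is close to the share over the whole array, so nothing is read from the count, and what follows is about the single genes.

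On day 1, 3 genes were higher and 7 lower than in control mice, which is 8.82% and 20.6% of the 34, against 10.7% and 8.38% of everything tested. The lower genes were Hmgn2, Asf1b, H2az1, Hmgb3, Asf1a, Kmt2a and Smarcd2, and the higher genes were Hdac7, H2ap and Dnmt3l. On day 2, again 3 were higher and 7 lower, against 9.61% of all features in each direction, with H3f3a among the lower genes and Smarcd2 no longer past the threshold. On day 5, limma called 0 of 34 higher and 2 lower, Hmgn1 and Kmt2a, against 0.906% and 1.72% of all features. At an unadjusted p under 0.05 the day 5 counts were 1 higher and 5 lower. The share of all features at that threshold was not counted, so nothing is read from these counts. The median log2 difference of the 34 genes was -0.143 on day 1, -0.0893 on day 2 and -0.0462 on day 5, beside medians of -0.0147, -0.0220 and 0.00781 over all features. The 3 comparisons with control share the same 5 control mice. Without day 1 mouse 2 the day 1 calls numbered 5, and without day 1 mouse 3 they numbered 6. Only 32 of the 34 genes were in those fits, since Hdac7 and Dnmt3l then had fewer than 3 measured mice on day 1.

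**Figure D2:**
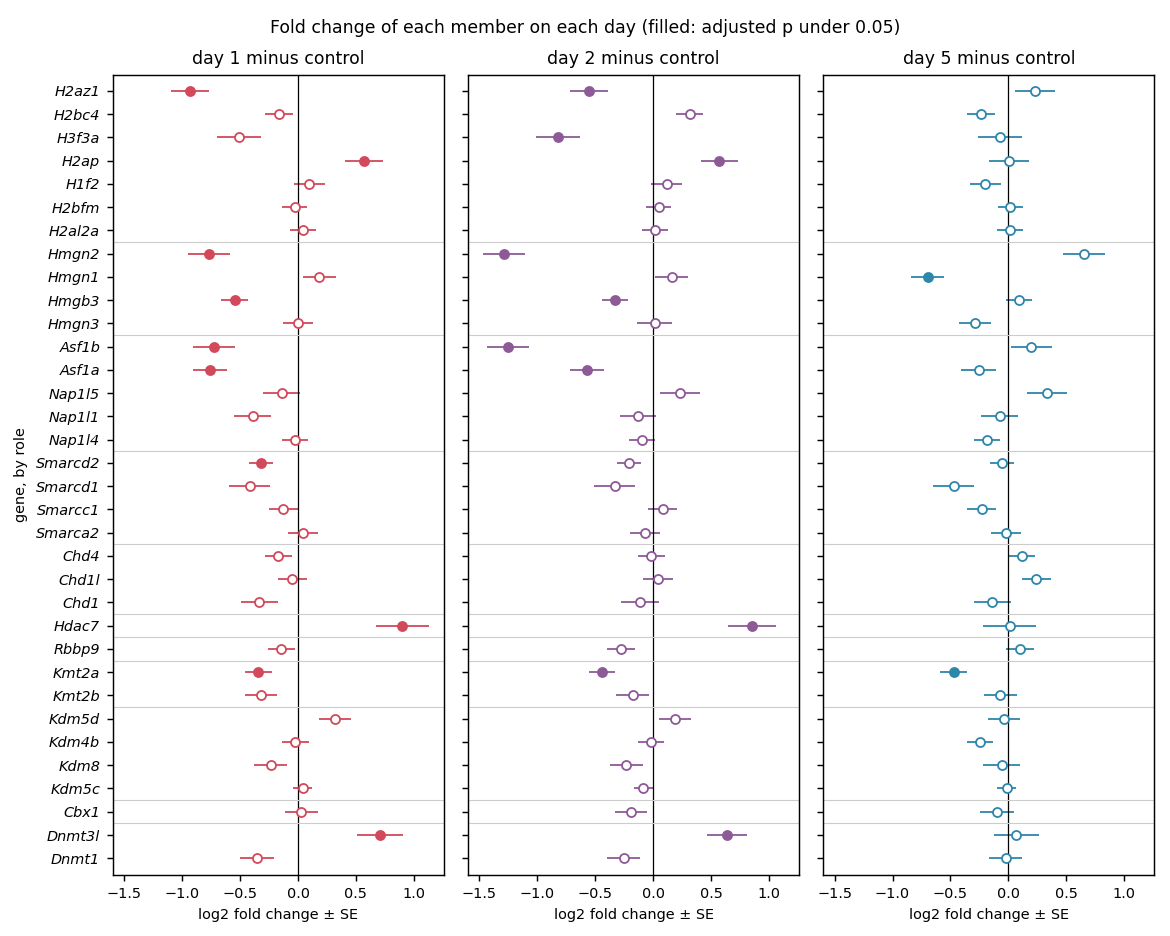
Points are the log2 fold change of each of the 34 genes on day 1, day 2 and day 5 against control, with bars of 1 standard error of the moderated fit, and filled points passed an adjusted p under 0.05. There are 10 filled points on day 1, 10 on day 2 and 2 on day 5, and the points farthest to the left on day 2 are Hmgn2 and Asf1b.

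The HMG proteins bind chromatin without being histones, and the nucleosome-binding HMGN members counteract compaction by linker histones. Of the 4 tested, Hmgn2 and Hmgb3 were lower on days 1 and 2, Hmgn1 was lower on day 5, and Hmgn3 did not pass on any day. Hmgn2 read 0.49, 0.48, 0.81, 0.30 and 0.017 in control mice, -0.19, -0.72, -0.55, 0.075 and -0.35 on day 1, -1.43, -0.75, -1.11, -0.52 and -0.51 on day 2 and 0.92, 1.05, 1.10, 1.53 and 0.76 on day 5. All 5 mice of day 2 lay below every control mouse, whereas on day 1 the mouse at 0.075 overlapped the control mouse at 0.017. The log2 difference from control was -0.77 ± 0.18 (SE, adjusted p = 0.00605) on day 1 and -1.29 ± 0.18 (SE, adjusted p = 7.35e-05) on day 2, where the ratio was 2.44-fold lower than in controls. On day 5 all 5 mice were above the control mean but the lowest, at 0.76, overlapped the highest control mouse, and the difference of 0.65 ± 0.18 (SE, adjusted p = 0.0552) missed the threshold by a small margin. It passed under 4 of the 9 other processing settings, with adjusted p values of 0.0397 to 0.0463 in 3 of them and 0.00502 with array quality weights. It also passed when control mouse 3, day 1 mouse 2 or 4, day 2 mouse 1 or 5, or day 5 mouse 5 was left out (adjusted p 0.0295 to 0.0474). Day 5 exceeded day 2 by 1.94 ± 0.18 (SE, adjusted p = 1.26e-07), with no overlap between the groups, the smallest p of any of the 34 genes in that comparison.

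Hmgn1, which has the same nucleosome-binding domain as Hmgn2, ran a different course. Its values were 0.22, 0.16, 0.17, 0.067 and -0.0086 in control mice, 0.50, 0.51, 0.083, 0.15 and 0.28 on day 1, 0.31, 0.28, 0.20, 0.30 and 0.33 on day 2 and -0.39, -0.22, -0.59, -1.28 and -0.40 on day 5. All 5 mice of day 5 were below every mouse of the other groups, with mouse 4 the lowest. The differences from control were 0.18 ± 0.14 (SE, adjusted p = 0.384) on day 1, 0.16 ± 0.14 (SE, adjusted p = 0.469) on day 2 and -0.70 ± 0.14 (SE, adjusted p = 0.00466) on day 5. Set against each other within each mouse, the Hmgn2 value minus the Hmgn1 value averaged -0.65 ± 0.41 on day 1, -1.15 ± 0.39 on day 2 and 1.65 ± 0.68 on day 5, against 0.30 ± 0.22 in controls (SD, n = 5 each). The groups did not overlap with the controls on any day. The exact two-sided permutation p over mice was 0.00794 on each day, the smallest that 5 against 5 allows, and 0.0119 after adjustment over the 6 tests of this kind, for pairs that were chosen after their values had been seen. Both genes have many processed pseudogenes in mammals, and whether the probes also bind such copies was not tested.

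**Figure D3:**
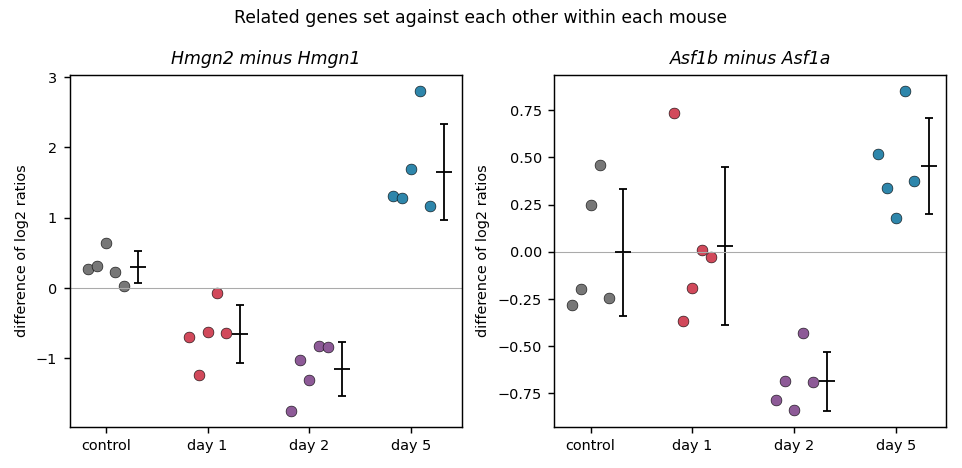
Points are mice, and the vertical axis is the difference of 2 log2 ratios within a mouse, Hmgn2 minus Hmgn1 on the left and Asf1b minus Asf1a on the right, by group in time order, with the mean and SD beside the points. The left panel is below all controls on days 1 and 2 and above all controls on day 5, while the right panel leaves the control range in every mouse only on day 2.

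Hmgb3, a DNA-bending HMG protein found in blood precursors, read -0.22, -0.20, -0.49, -0.48 and -0.17 in control mice, -0.63, -1.05, -0.78, -0.81 and -1.04 on day 1, -0.69, -0.72, -0.81, -0.75 and -0.25 on day 2 and -0.12, -0.17, -0.21, -0.39 and -0.22 on day 5. The 5 mice of day 1 were all below the controls, and on day 2 mouse 5 stood among the controls while the other 4 were below them. The difference was -0.55 ± 0.11 (SE, adjusted p = 0.00263) on day 1 and -0.33 ± 0.11 (SE, adjusted p = 0.0446) on day 2. The day 2 call is at the edge of the threshold: it was lost when any 1 of 8 mice was left out (control mice 1, 2 and 5, day 2 mice 1, 2, 3 and 4, and day 5 mouse 3), with adjusted p between 0.0506 and 0.119, and with only the second array of each mouse (adjusted p = 0.0656). Hmgn3 averaged -0.20 ± 0.24 in 4 mice on day 5, against 0.088 ± 0.075 in 4 control mice, a difference of -0.29 ± 0.14 (SE, adjusted p = 0.449) that did not pass.

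Histone chaperones hand histones to DNA. Asf1a and Asf1b both bind the H3-H4 dimer, and Asf1b is the form tied to dividing cells. Of the 5 chaperones tested, these 2 were lower on days 1 and 2 and the 3 Nap1-like genes did not pass on any day. Asf1b read -0.097, -0.11, 0.22, 0.15 and -0.14 in control mice, -0.061, -0.93, -1.14, -0.59 and -0.88 on day 1, -1.63, -1.09, -1.75, -0.67 and -1.09 on day 2 and 0.32, 0.20, 0.16, 0.066 and 0.27 on day 5. On day 1 mouse 1 sat among the controls while the other 4 were below them, and on day 2 all 5 mice were below. The difference was -0.73 ± 0.18 (SE, adjusted p = 0.00803) on day 1, -1.25 ± 0.18 (SE, adjusted p = 7.35e-05) on day 2 and 0.20 ± 0.18 (SE, adjusted p = 0.839) on day 5. Day 5 exceeded day 2 by 1.45 ± 0.18 (SE, adjusted p = 4.51e-06), again without overlap.

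Asf1a read 0.18, 0.089, -0.023, -0.31 and 0.11 in control mice, -0.79, -0.56, -0.95, -0.60 and -0.85 on day 1, -0.84, -0.41, -0.91, -0.23 and -0.40 on day 2 and -0.20, -0.14, -0.017, -0.79 and -0.10 on day 5. All mice of day 1 were below the controls, while on day 2 mouse 4 overlapped the lowest control. The differences were -0.76 ± 0.15 (SE, adjusted p = 0.00157) on day 1, -0.57 ± 0.15 (SE, adjusted p = 0.00956) on day 2 and -0.26 ± 0.15 (SE, adjusted p = 0.591) on day 5. The value of Asf1b minus Asf1a was -0.69 ± 0.16 on day 2, against -0.0026 ± 0.34 in controls, with an exact permutation p of 0.00794 (0.0119 adjusted). On day 1 that difference of 2 genes changed by 0.035 (p = 0.889 in the exact permutation test) and on day 5 by 0.46 (p = 0.0635, 0.0762 adjusted). Nap1l1, a chaperone of H2A and H2B, had a difference of -0.39 ± 0.16 (SE, adjusted p = 0.0835) on day 1, which passed without day 1 mouse 4 (adjusted p = 0.0442) and with array quality weights (-0.48, adjusted p = 0.00444). Nap1l5, an imprinted member of that family, read -1.11, -1.12, -0.62 and -0.72 in 4 control mice, -1.26, -1.01, -0.84 and -1.02 in 4 mice on day 1, -0.90, -0.64 and -0.45 in 3 on day 2 and -0.50, -0.27 and -0.90 in 3 on day 5. All its values were below the pool, the groups overlapped, and the F test did not pass (adjusted p = 0.116).

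Among the 7 histones tested, H2az1 and H3f3a are variants made outside S phase too, and H2bc4 is a core H2B gene. H2az1, the H2A.Z variant found at promoters, read 0.55, 0.30, 0.31 and 0.41 in 4 control mice, -0.12, -0.49, -0.89, -0.74 and -0.44 on day 1, -0.74, -0.14, -0.15, 0.27 and -0.036 on day 2 and 0.82, 0.61, 0.58 and 0.50 in 4 mice on day 5. Every mouse of days 1 and 2 was below every control, and on day 5 the values overlapped the controls again. The differences were -0.93 ± 0.16 (SE, adjusted p = 0.000895) on day 1, -0.55 ± 0.16 (SE, adjusted p = 0.0215) on day 2 and 0.23 ± 0.17 (SE, adjusted p = 0.754) on day 5. The day 2 call did not hold with only the second array of each mouse (-0.28, adjusted p = 0.287), nor without control mouse 1 (adjusted p = 0.0624) or day 2 mouse 1 (adjusted p = 0.0687).

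H3f3a, 1 of the genes for the replacement histone H3.3, read -0.53, -0.26, 0.78, 0.57 and 0.045 in control mice, -0.31, -0.75, -0.25, -0.24 and -0.41 on day 1, -1.03, -0.92, -0.50, -0.66 and -0.41 on day 2 and -0.10, -0.11, -0.11, 0.31 and 0.24 on day 5. The controls were widely spread, and the mice of day 2 reached below all of them in 3 of 5. The difference was -0.51 ± 0.19 (SE, adjusted p = 0.0620) on day 1 and -0.82 ± 0.19 (SE, adjusted p = 0.00446) on day 2. On both arrays of control mice 1 and 2 the probe sat at a value that many probes of the array shared, as spots at a scanner's limit would. With such values left out the differences were -0.86 on day 1 (adjusted p = 0.00229) and -1.17 on day 2 (adjusted p = 0.000121), while array quality weights gave -0.48 on day 2 (adjusted p = 0.0385). The day 1 difference also passed without control mouse 1 (adjusted p = 0.0163) or control mouse 2 (adjusted p = 0.0375).

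H2bc4 was the single gene of the 34 that differed between days 2 and 1, where it was higher by 0.48 ± 0.12 (SE, adjusted p = 0.0298). Of all features 1.36% were higher and 0.736% lower on day 2 than on day 1. Its values were -0.032, -0.22, 0.086, -0.29 and 0.0024 in control mice, -0.18, -0.30, -0.20, -0.50 and -0.10 on day 1, 0.16, 0.048, 0.33, 0.079 and 0.49 on day 2 and -0.031, -0.46, -0.33, -0.62 and -0.19 on day 5. Every mouse of day 2 was above every mouse of days 1 and 5 while 2 of the 5 were within the control range and 3 above it. The difference from control on day 2, 0.31 ± 0.12 (SE, adjusted p = 0.0663), did not pass, but did without day 2 mouse 2 (adjusted p = 0.0449) or day 5 mouse 4 (adjusted p = 0.0489), and under 4 of the 9 other processing settings (adjusted p 0.0227 to 0.0484). The difference between days 2 and 1 was lost without day 1 mouse 2 or 4 or day 2 mouse 3 or 5 (adjusted p 0.0522 to 0.0859), and with only the first array of each mouse (adjusted p = 0.0709). For Asf1b, day 2 minus day 1 was -0.53 ± 0.18 (SE, adjusted p = 0.138), and of the settings run this passed only without day 2 mouse 4 (-0.67, adjusted p = 0.0478).

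H2ap, an X-linked gene of the H2A family, read 0.0096, 0.21, 0.22 and 0.043 in 4 control mice, 0.0013, 1.13, 0.81, 0.66 and 0.85 on day 1, 0.95, 0.57, 0.59, 0.74 and 0.61 on day 2 and 0.36, 0.22, -0.12 and 0.057 in 4 mice on day 5. On day 1 mouse 1 was at the low end of the controls while the other 4 were above all controls, as were all 5 on day 2. The differences were 0.57 ± 0.16 (SE, adjusted p = 0.0189) on day 1 and 0.57 ± 0.16 (SE, adjusted p = 0.0175) on day 2. The first did not pass without control mouse 1 (adjusted p = 0.0533) or day 1 mouse 2 (adjusted p = 0.0584), nor the second without day 2 mouse 1 (adjusted p = 0.0553). H1f2, a linker histone, H2bfm of the H2B family and H2al2a, a histone variant known from testis, did not pass on any day, with differences from control between -0.20 and 0.12.

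**Figure D4:**
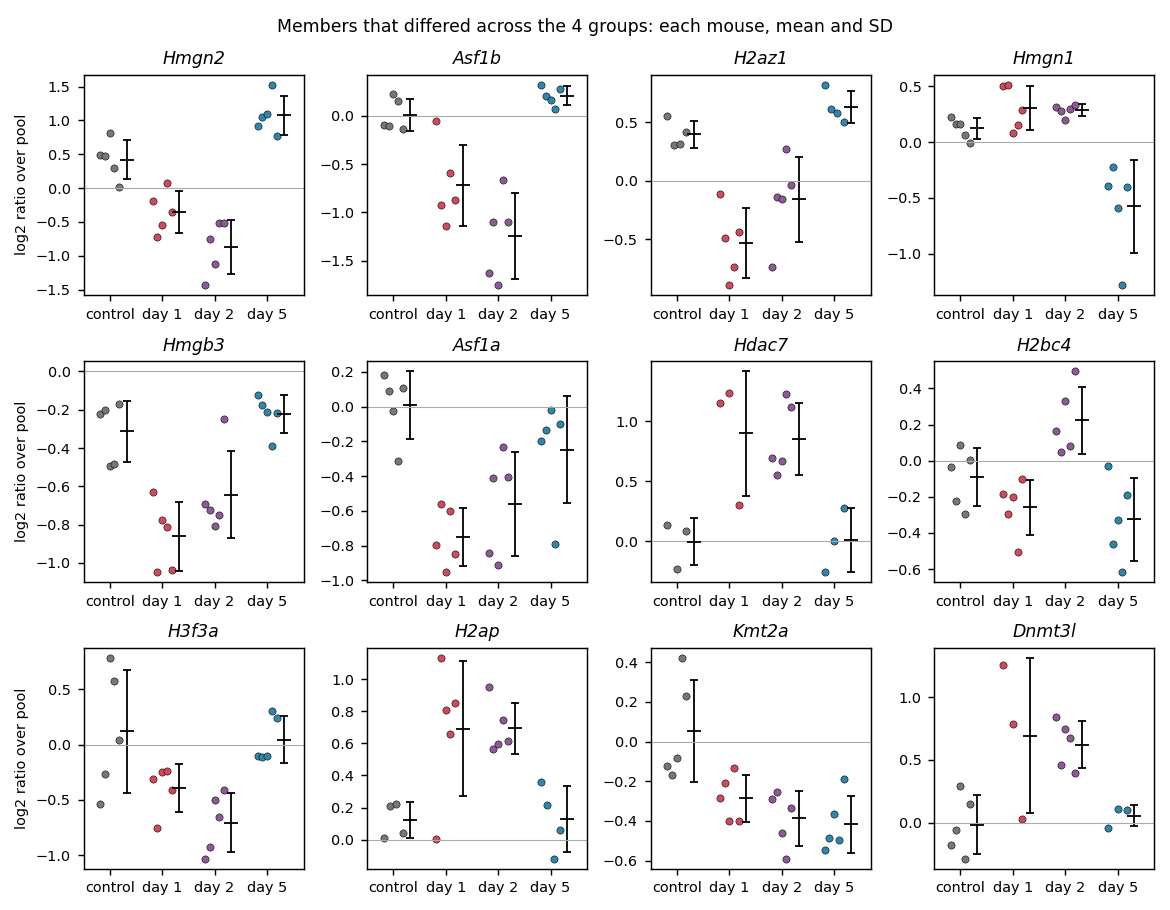
Each panel is 1 of the 12 genes that differed across the 4 groups, with the log2 ratio of each mouse over the pool by group in time order and the mean and SD beside the points. Hmgn2, Asf1b, H2az1 and H3f3a have their lowest means on day 1 or day 2, Hdac7, H2ap and Dnmt3l are raised on those days, and Hmgn1 is low on day 5.

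Histone deacetylases remove acetyl groups and are generally repressive. Hdac7, a class IIa member known from lymphocyte development and endothelium, was the single one of 8 that could be tested, and it was higher on days 1 and 2. It read 0.13, -0.23 and 0.085 in 3 control mice, 1.15, 1.24 and 0.30 in 3 mice on day 1, 0.69, 0.55, 0.67, 1.23 and 1.12 in 5 mice on day 2 and -0.25, 0.0054 and 0.28 in 3 mice on day 5. Every measured mouse of days 1 and 2 was above every measured control. The differences were 0.90 ± 0.23 (SE, adjusted p = 0.0124) on day 1, 0.85 ± 0.21 (SE, adjusted p = 0.00812) on day 2 and 0.012 ± 0.23 (SE, adjusted p = 0.996) on day 5. The fit used no value for the blank mice, and the rule behind the blanks is unknown.

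DNA methyltransferases copy or set methyl groups on cytosine. Dnmt3l, a partner of the de novo enzymes that has no catalytic activity of its own, read -0.18, -0.058, 0.29, -0.29 and 0.15 in control mice, 1.26, 0.78 and 0.032 in 3 mice on day 1, 0.84, 0.45, 0.74, 0.67 and 0.39 on day 2 and -0.044, 0.10 and 0.099 in 3 mice on day 5. All 5 mice of day 2 were above the controls, whereas 1 of the 3 on day 1 was among them. The differences were 0.71 ± 0.20 (SE, adjusted p = 0.0183) on day 1 and 0.64 ± 0.17 (SE, adjusted p = 0.0138) on day 2. Dnmt1, which maintains methylation after replication, read -0.091, -0.25, -0.42, 0.31 and 0.41 in control mice, -0.018, -0.40, -0.38, -0.52 and -0.49 on day 1, -0.51, 0.0026, -0.53, -0.23 and -0.06 on day 2 and -0.0017, 0.072, -0.062, -0.11 and -0.06 on day 5. The groups overlapped, and the difference of -0.35 ± 0.14 (SE, adjusted p = 0.0898) on day 1 did not pass. Its 2 probes gave -0.44 and -0.40 on day 1 and -0.17 and -0.47 on day 2. Both day 1 values lie beyond the -0.35 of their average, since the second probe had values in only 4 of 5 control mice. With only the probe that had most values the day 1 difference passed (adjusted p = 0.0281), as it did with array quality weights (adjusted p = 0.0168). It also passed without control mouse 3 (adjusted p = 0.0367) or day 1 mouse 1 (adjusted p = 0.0302).

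The enzymes that methylate histone H3 at lysine 4 were represented by Kmt2a, needed for blood stem cells, and its relative Kmt2b. Kmt2a read -0.12, -0.17, -0.081, 0.42 and 0.23 in control mice, -0.28, -0.21, -0.40, -0.13 and -0.40 on day 1, -0.29, -0.26, -0.46, -0.59 and -0.33 on day 2 and -0.55, -0.48, -0.37, -0.50 and -0.19 on day 5. All mice of days 2 and 5 were below every control, and the mouse at -0.13 on day 1 overlapped them. The differences were -0.34 ± 0.11 (SE, adjusted p = 0.0395) on day 1, -0.44 ± 0.11 (SE, adjusted p = 0.00968) on day 2 and -0.47 ± 0.11 (SE, adjusted p = 0.0216) on day 5, and Kmt2a was the only gene of the 34 called on all 3 days. The day 5 call was lost without control mouse 4 or 5 or without day 5 mouse 1, 2 or 4 (adjusted p 0.0537 to 0.0763). The day 1 call was lost without control mouse 4 or 5 or day 1 mouse 2, 3 or 5 (adjusted p 0.0544 to 0.118) and in 3 other settings. Kmt2b had a difference of -0.32 ± 0.14 (SE, adjusted p = 0.111) on day 1 and did not pass.

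SWI/SNF and CHD complexes use ATP to move nucleosomes. Of 7 subunits and remodellers tested, Smarcd2, an accessory subunit needed for granulocyte maturation, was the single one that passed on any day. It read 0.21, -0.31, -0.25, -0.49 and -0.27 on day 1, against 0.055, 0.054, 0.13, 0.26 and -0.029 in control mice. Mouse 1 of day 1 was among the controls and the other 4 were below them, and the difference was -0.32 ± 0.10 (SE, adjusted p = 0.0363). The call was lost when any 1 of 8 mice was left out (control mice 1, 2, 3 and 4 and day 1 mice 2, 3, 4 and 5), with adjusted p between 0.0503 and 0.0900, and with only the second array of each mouse (adjusted p = 0.0887), and its F test did not pass (adjusted p = 0.0651). On day 2 Smarcd2 read -0.12, -0.037, -0.11, -0.21 and -0.10, all below every control. That difference, -0.21 ± 0.10 (SE, adjusted p = 0.166), did not pass. Smarcd1, Smarcc1, Smarca2, Chd1, Chd1l and Chd4 had differences from control of -0.47 to 0.24 over the 3 days, and none passed. That of Smarcc1 on day 1 passed with array quality weights (-0.25, adjusted p = 0.0431). The day 1 difference of Smarcd1, -0.42 ± 0.18 (SE, adjusted p = 0.0986), passed without day 1 mouse 1 (adjusted p = 0.0276). Chd4, the motor of the NuRD complex, read -0.091, -0.37, -0.46, -0.41 and -0.21 on day 1, against -0.12, -0.027, -0.46, -0.26 and 0.17 in control mice, and the groups overlapped.

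The demethylases, the chromobox protein and Rbbp9 did not pass against control on any day, though Rbbp9 did on day 2 with array quality weights (-0.27, adjusted p = 0.0416). Kdm5d, a Y-linked demethylase of H3 lysine 4, had the largest early difference among the 4 demethylases, 0.32 ± 0.14 (SE, adjusted p = 0.113) on day 1. It read -0.42, 0.50, 0.18, 0.058 and 0.34 on day 1, against -0.20, -0.029, -0.14, -0.34 and -0.23 in control mice, and the groups overlapped. Without day 1 mouse 1, the lowest of that group, the difference passed (0.46, adjusted p = 0.00873), as it did with array quality weights on all mice (0.42, adjusted p = 0.00329). Cbx1, the HP1 protein that binds methylated H3 lysine 9, read -0.44, -0.18, -0.67, 0.13 and -0.027 on day 2, against -0.057, 0.065, -0.083, -0.35 and 0.21 in control mice, a difference of -0.20 ± 0.14 (SE, adjusted p = 0.353). Kdm4b, Kdm5c and Kdm8 had differences of -0.24 to 0.041, and none passed on any day. Rbbp9, a serine hydrolase that binds the retinoblastoma protein, read -0.066, -0.39, -0.31, 0.033 and -0.39 on day 5, against -0.75, -0.85, -0.58, -0.39 and -0.44 on day 2. These groups overlapped, and the difference of 0.38 ± 0.12 (SE, adjusted p = 0.0237) was lost without day 2 mouse 1 or 2 or day 5 mouse 1 or 4 (adjusted p 0.0580 to 0.0740), and with only the second array of each mouse (adjusted p = 0.0927).

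Between days 5 and 2, limma called 6 of the 34 genes higher and 5 lower, against 10.3% and 10.5% of all features, in a comparison that shares the day 2 mice with that of day 2 against control. The 6 higher on day 5 were Hmgn2, Asf1b, H2az1, H3f3a, Hmgb3 and Rbbp9, and the 5 lower were Hmgn1, Hdac7, H2bc4, H2ap and Dnmt3l. Hdac7 differed by -0.84 ± 0.21 (SE, adjusted p = 0.00699), H2ap by -0.56 ± 0.16 (SE, adjusted p = 0.0157) and Dnmt3l by -0.57 ± 0.20 (SE, adjusted p = 0.0468), while H2az1 differed by 0.79 ± 0.16 (SE, adjusted p = 0.00151), H3f3a by 0.75 ± 0.19 (SE, adjusted p = 0.00639) and Hmgb3 by 0.42 ± 0.11 (SE, adjusted p = 0.0102). H2bc4 differed by -0.55 ± 0.12 (SE, adjusted p = 0.00195) and Hmgn1 by -0.86 ± 0.14 (SE, adjusted p = 0.000141). Kmt2a differed by -0.031 ± 0.11 (SE, adjusted p = 0.882), and Asf1a by 0.31 ± 0.15 (SE, adjusted p = 0.143), neither of which passed, though that of Asf1a did without day 5 mouse 4 (adjusted p = 0.0229) and with array quality weights (adjusted p = 0.0353). The H2ap call was lost without day 5 mouse 4 (adjusted p = 0.0599), and that of Dnmt3l without any 1 of 7 mice (control mice 1, 2 and 5, day 2 mice 1, 3 and 4, and day 5 mouse 2, adjusted p 0.0511 to 0.108) and in 3 other settings.

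Many genes of replication and mitosis were lower on days 1 and 2, when most of the lower members were called. Of 20 such genes tested out of 45 listed, limma called 0 higher and 13 lower on day 1, and 0 higher and 11 lower on day 2, with median differences of -0.64 and -0.59. At an unadjusted p under 0.05 the counts were 0 higher on both days and 18 and 13 lower. Pcna, the sliding clamp of DNA replication, differed by -0.92 ± 0.13 (SE, adjusted p = 0.000280) on day 1, and Nusap1, a spindle protein, by -1.02 ± 0.14 (SE, adjusted p = 6.95e-05) on day 2. The mean of the 20 genes per mouse ranged from -0.026 to 0.23 in controls, from -0.74 to -0.30 on day 1, from -0.74 to -0.27 on day 2 and from -0.041 to 0.14 on day 5. On day 5 limma called 0 of the 20 in either direction, also 0 at an unadjusted p under 0.05, and between days 5 and 2 it called 10 higher. The part of these genes in the lower ratios of Hmgn2, Asf1b, Asf1a, H2az1, Hmgb3 and H3f3a was not tested. Hmgn1 and Kmt2a were called lower on day 5, when 0 of the 20 genes passed.

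Markers of other marrow cells moved beside the genes that were higher on days 1 and 2. Of 5 macrophage markers tested out of 7, 2 were higher on day 1 and 5 on day 2, with means per mouse of -0.39 to 0.20 in controls, 0.37 to 0.80 on day 1, 0.66 to 1.42 on day 2 and -0.62 to -0.16 on day 5. Of 4 endothelial markers tested out of 5, 2 were higher on day 1 and 3 on day 2, with means of -0.19 to -0.079 in controls, 0.27 to 0.61 on day 1, 0.36 to 0.61 on day 2 and -0.29 to 0.014 on day 5. Of 2 mature B cell markers tested out of 5, Cd22 was higher on day 1 (0.52, limma adjusted p = 0.00928) and day 2 (0.38, adjusted p = 0.0465), while Ms4a1 passed on neither day. The means of these 2 genes were -0.31 to -0.048 in controls, 0.26 to 0.86 on day 1, -0.27 to 0.054 on day 2 and -2.21 to -0.92 on day 5, where both were lower. The part of macrophages, endothelium and mature B cells in the higher ratios of Hdac7, H2ap and Dnmt3l was not tested. Of 6 late neutrophil markers, 5 were lower on day 2, with means of -1.37 to -0.99 on day 2, against -0.077 to 0.23 in controls, and 3 of 5 erythroid markers were lower on that day. The other 2 did not pass on day 2, Alas2, the first enzyme of heme synthesis in red cell precursors, at 0.58 (limma adjusted p = 0.0600) and Hba-a1, an alpha globin, at 0.33 (adjusted p = 0.417). Alas2 was higher on day 1 (1.36, adjusted p = 0.000474), when no other erythroid marker passed. Prtn3, the single granulocyte precursor marker tested out of 5, was lower on day 1 (-1.15, limma adjusted p = 0.00202). It did not pass on day 2 (-0.089, adjusted p = 0.844) and was higher on day 5 (1.35, adjusted p = 0.000914). Its values were -0.10 to 0.73 in controls and -1.37 to 0.064 on day 1. They were 0.21 to 0.58 in 4 mice on day 2 and 1.08 to 2.34 on day 5. The part of granulocyte precursors in the ratios of Hmgn2 was not tested. Both B cell precursor markers tested out of 5, Vpreb1 and Vpreb3, were lower on all 3 days, the early ones included. Their means were -0.077 to 0.56 in controls, -1.03 to -0.090 on day 1, -1.97 to -0.63 on day 2 and -1.82 to -0.34 on day 5. The part of B cells in the day 5 ratios of Hmgn1 and Kmt2a, and of precursor B cells in the genes that were lower on days 1 and 2, was likewise not tested.

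Chromatin genes outside the named families were fitted in the same model. From a list of 112 such genes 67 were annotated and 20 tested. On day 1 limma called 1 higher and 4 lower (5% and 20%), against 10.7% and 8.38% of all features. On day 2 it called 1 higher and 2 lower (5% and 10%), against 9.61% of all features in each direction. On day 5 it called 0 in either direction, and 1 higher and 1 lower at an unadjusted p under 0.05. Nothing is read from these counts. Smc4, a condensin subunit that compacts mitotic chromosomes, differed by -0.77 ± 0.10 (SE, adjusted p = 9.22e-05) on day 1 and -0.87 ± 0.10 (SE, adjusted p = 8.11e-06) on day 2. Anp32b, a histone-binding chaperone, differed on day 1 by -0.92 ± 0.16 (SE, adjusted p = 0.000716). Atrx, the remodeller that deposits H3.3 in heterochromatin, was the single higher one, by 0.70 ± 0.15 (SE, adjusted p = 0.00430) on day 1 and 0.57 ± 0.13 (SE, adjusted p = 0.00645) on day 2. Of 5 genes for histone mRNA processing, Slbp, which binds the stem-loop of histone mRNAs, was the single one called, with -0.66 ± 0.14 (SE, adjusted p = 0.00342) on day 1 and -0.58 ± 0.14 (SE, adjusted p = 0.00662) on day 2.

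Promoter sequences were examined for 28 of the 34 genes that the RefSeq table holds, in 36 windows from 250 bases before to 50 after the annotated start (GRCm38.p6). CCAAT, the box bound by NF-Y, was found on either strand in 19 of 36 windows, 52.8%, against 37.4% of all 32851 windows. Of the 16 windows of genes that passed the F test, 8 held it (50%). Of the 8 windows of genes that were lower on day 1 or day 2, a set chosen by its calls in these data, 6 held it. TTTGAA, the cell cycle homology region of late cell cycle genes, was found in 5 of 36 windows, 13.9%, against 17.9% of all windows. Of the 8 windows of the lower genes, 2 held it. The E2F sites TTTCGCGC or TTTGGCGC were found in 1 of 36 windows (0.813% of all windows) and the octamer ATTTGCAT in 0 of 36 (1.74% of all). A match is only a match of letters. The windows of Hmgn2, Asf1b and H2az1, the 3 genes with the smallest F p, are printed with that of Hmgn1, whose course differed from that of Hmgn2, 5′ to 3′ along the gene's strand with CCAAT, its reverse complement ATTGG and TTTGAA in capitals. Hmgn2 is at chr4:133967942-133968241 on the minus strand, Asf1b at chr8:83955444-83955743 on the plus strand, H2az1 at chr3:137864237-137864536 on the plus strand and Hmgn1 at chr16:96127676-96127975 on the minus strand.
Hmgn2: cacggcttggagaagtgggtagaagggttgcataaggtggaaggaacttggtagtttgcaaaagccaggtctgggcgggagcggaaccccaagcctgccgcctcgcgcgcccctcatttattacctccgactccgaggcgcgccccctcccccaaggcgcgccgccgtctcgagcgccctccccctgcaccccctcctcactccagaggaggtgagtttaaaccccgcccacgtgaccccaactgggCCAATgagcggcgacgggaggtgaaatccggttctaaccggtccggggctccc
Asf1b: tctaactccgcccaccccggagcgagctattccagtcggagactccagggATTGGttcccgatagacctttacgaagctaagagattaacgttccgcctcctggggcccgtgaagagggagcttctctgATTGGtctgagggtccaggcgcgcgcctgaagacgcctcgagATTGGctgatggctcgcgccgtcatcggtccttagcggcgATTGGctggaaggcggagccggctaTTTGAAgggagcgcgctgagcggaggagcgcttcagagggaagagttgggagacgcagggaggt
H2az1: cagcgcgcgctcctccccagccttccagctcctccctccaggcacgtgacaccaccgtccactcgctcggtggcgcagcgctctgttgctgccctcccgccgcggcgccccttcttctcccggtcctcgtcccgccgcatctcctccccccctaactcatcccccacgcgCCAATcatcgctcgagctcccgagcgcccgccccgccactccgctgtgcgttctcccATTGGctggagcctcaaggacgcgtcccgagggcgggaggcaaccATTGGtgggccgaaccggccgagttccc
Hmgn1: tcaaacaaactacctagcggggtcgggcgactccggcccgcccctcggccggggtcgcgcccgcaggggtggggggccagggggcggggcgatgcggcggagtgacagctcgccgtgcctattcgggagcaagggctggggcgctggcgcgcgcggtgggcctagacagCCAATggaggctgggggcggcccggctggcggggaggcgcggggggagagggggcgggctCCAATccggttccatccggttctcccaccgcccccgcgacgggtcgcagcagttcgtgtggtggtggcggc
The Asf1b window holds 4 CCAAT boxes, all on the reverse strand, and 1 TTTGAA that begins 14 bases before the start. H2az1 has 3 boxes, 1 of them after the start, Hmgn1 has 2 and Hmgn2 has 1, which spans the start itself.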

How the data were processed

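Marrow RNA of 20 DBA/2 mice was hybridised to 40 arrays of 2 dyes, with the mouse RNA in Cy5 and a common reference in Cy3, per the labels' protocols. Extraction used the RNeasy Midi kit of Qiagen, and amplification the amino allyl kit of Ambion, per the labels' protocols. The labels describe the reference as pooled marrow of untreated mice, while its treatment field names the drug, and which is right was not settled. The pool cancels in differences between groups. The authors' deposited values are 1 log ratio for each probe on each array, read here as log2. The sources used here do not give their log base, scanner, background correction, normalization or rule for blank values. With natural logarithms every fold would be larger.

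The 2 arrays of a mouse were averaged, then probes with the same symbol. Features with values in at least 3 mice of every group, 5297 in all, were fitted with 1 mean per group in limma 3.58.1 (R 4.3.3). Variances were moderated by empirical Bayes with 7.8 prior degrees of freedom, with Benjamini-Hochberg adjustment over all of them and calls at an adjusted p under 0.05. Blank values were not filled in. Fold changes, their standard errors and the adjusted p values are from this fit, and each F test is its moderated F. Differences between related genes were tested by exact permutation over mice. Precision rests on at most 5 mice per group, and on only 3 for some genes. The median standard error of a day 1 difference was 0.132 over all features and 0.139 over the tested members. Mice are the biological replicates of the labels, and the 2 arrays of each mouse are technical ones. The steps were tested on simulated data.

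Of 13443 probes 10032 had 1 symbol in the platform annotation, 170 several and 3241 none, and only the first were named. Promoter windows and gene positions come from the RefSeq table of GRCm38.p6. Every member could be named. Values per mouse, for some genes only in the groups compared, were given for the 16 members with the smallest F p, for the best member of each further role and for fixed genes. They were also given for H1f1, which was not tested. The comparison lists were given by counts with up to 4 examples. The members and lists were chosen with earlier results of these data known. Alternatives covered a replicate block, the minimum of mice, the choice of probe, single arrays, centring, shared values, array weights and each mouse left out.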

Additional observations from a re-analysis of the deposited data

Results flagged for a closer look

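In 3 of 69 groups of mice examined, 1 mouse stood apart from the other 4 by Dixon's criterion, which chance alone meets in about 1 of 20 groups. Mouse 5 of day 2 had a Hmgb3 value of -0.25, where the nearest of the others was at -0.69. Mouse 4 of day 5 had an Asf1a value of -0.79, with the nearest at -0.20. Mouse 1 of day 1 had a Dnmt1 value of -0.018, with the nearest at -0.38.

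For 11 genes the drug groups of day 5 and day 2 differed from each other in the fit, so that their differences from control were not the same on the 2 days. The log2 difference of day 5 over day 2 was 1.94 for Hmgn2, 1.45 for Asf1b, 0.79 for H2az1, 0.75 for H3f3a, 0.42 for Hmgb3 and 0.38 for Rbbp9. It was -0.86 for Hmgn1, -0.84 for Hdac7, -0.57 for Dnmt3l, -0.56 for H2ap and -0.55 for H2bc4. Between day 2 and day 1 the single such gene was H2bc4, with a difference of 0.48.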

How the results depend on the processing

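Of 34 called differences of single genes, 27 stayed past the threshold in all 9 settings other than leaving out a mouse (or in those where the gene could be fitted). Of these, 23 also held with each of the 20 mice left out in turn, where the gene could be fitted. Of the 34, 0 turned their sign. The calls of Hdac7 could be refitted in only 11 of the 20 runs that left out a mouse, and those of Dnmt3l in 14. The other runs took away a measured mouse from a group with only 3, so these calls were not tested against its loss. Another 9 differences that were not called passed in at least 1 of those 9 settings, those of Dnmt1, H3f3a, Kdm5d, Nap1l1 and Smarcc1 on day 1, H2bc4 and Rbbp9 on day 2, Hmgn2 on day 5 and Asf1a between days 5 and 2. For 5 of them this was array quality weights alone. The day 1 count of 10 genes ranged from 5 to 13 when 1 mouse was left out, the day 2 count of 10 from 7 to 11, and the day 5 count of 2 from 1 to 3. Leaving out a mouse kept 30 to 34 of the 34 genes in the fit, so some of the lost calls were of genes no longer tested. The count of 1 between days 2 and 1 ranged from 0 to 2 in the same way and was 0 with only the first array of each mouse. The count of 11 between days 5 and 2 ranged from 8 to 11 and was 7 where all 5 mice of every group had to be measured, which left 24 of the 34 genes in the fit. The F test's 12 genes ranged from 10 to 15, and array quality weights gave 20 (2456 of 5297 features against 1626). Over all features such weights called 1891 against 1012 on day 1, 366 against 139 on day 5 and 278 against 111 between days 2 and 1. Without day 1 mouse 2 or 3 the day 1 count over all features was 641 or 611, and without day 1 mouse 1 it was 1313, against 1012. Without day 2 mouse 1 the day 2 count was 592 against 1018. The cause of these shifts was not tested.

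With the replicate number as a block (replicate block), the counts were 10 on day 1, 11 on day 2, 2 on day 5, 1 between days 2 and 1, 11 between days 5 and 2 and 12 in the F test. Over all features the counts of that fit were, in the same order, 986, 979, 124, 115, 1084 and 1578. Same-numbered mice correlated at -0.39 to 0.33 over 30 pairs, 8 of which were over 0.1. Their median was -0.0023, against 0.0016 for pairs of other numbers. Of 20 mice 8 were most like a mouse of their own number, a count that was not compared with its chance level. The labels state no pairing, and the number was not taken to pair the mice. The block ended the day 1 call of Kmt2a (adjusted p = 0.0513) and brought H2bc4 on day 2 (0.0227) and H3f3a on day 1 (0.0254) past the threshold. Centring each array again moved the median of all features by at most 0.0164. Blank values, of unknown rule, and the unknown log base limit every fold given.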
